A study of Mus musculus with 6 samples.

Results

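The Ly6 and Slurp genes described here are 8 mouse genes of the Ly6/uPAR domain family, namely Ly6a, Ly6c1, Ly6d, Ly6e, Ly6k, Ly6g6c, Lypd3 and Slurp1, taken by symbol from a count table of 24067 genes. All 8 had a row. Their RNA was compared between 3 tongues labelled HuR knockout (KO) and 3 labelled HuR wild type (WT), all from C57BL/6 mice about 34 weeks old. Every mouse, KO and WT, had received the oral carcinogen 4-nitroquinoline 1-oxide for 16 weeks and was kept for another 12 weeks until tongue tumours formed, so no library is from an unexposed tongue. The RNA came from the tongue together with its tumours. The sources used here do not say which cells lack HuR or whether each library is 1 animal.

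Ly6/uPAR proteins are small and share a fold of finger-like loops held together by disulfide bonds. Most are tied to the outer cell membrane by a glycosylphosphatidylinositol (GPI) anchor, and a few, such as Slurp1, are secreted. Several are made by the layers of stratified squamous epithelium, the lining of the mouth, where Ly6d and Lypd3 are used as keratinocyte markers. Others are better known from vessels and blood cells, above all Ly6a, also called Sca-1, and Ly6c1.

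HuR, the product of Elavl1, binds AU-rich stretches of messenger RNAs. The KO labels did not come with less Elavl1, which had 65.0, 59.3 and 78.4 CPM (counts scaled to a common library size) in KO replicates 1 to 3, against 61.7, 55.8 and 48.0 CPM in WT replicates 1 to 3. Its log2 fold change of 0.29 ± 0.15 did not pass the test (edgeR adjusted p = 0.180). The groups are therefore named by their labels, and each direction is that between the labels. The libraries held 29543352 to 51520707 gene counts. Xist and Y-linked genes marked KO replicates 2 and 3 as female and the other 4 libraries as male. Keratinocyte and muscle genes of a tongue were abundant. The summed CPM of 12 basal keratinocyte genes was 14400 to 16000 in the libraries labelled KO and 7670 to 13300 in those labelled WT. For 22 suprabasal keratinocyte genes the sums were 35500 to 49600 CPM in the KO group and 18500 to 28300 CPM in the WT group. For 18 fast muscle genes they were 47500 to 66900 CPM in the KO group and 83900 to 153000 CPM in the WT group. Epithelial and muscle RNA thus moved with the labels, and their part in the results below was not tested beyond the ratios and covariate values given. In such bulk samples, fewer cells of a type and less RNA per cell cannot be told apart.

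In the mouse genome (GRCm38/mm10, GENCODE M21 gene models) 6 of the 8 genes lie within 325 kb of chromosome 15. They are Slurp1 (chr15:74724318-74728034), Ly6d (chr15:74762056-74763620), Ly6k (chr15:74796874-74799986), Ly6e (chr15:74955051-74959905), Ly6a (chr15:74994877-74998031) and Ly6c1 (chr15:75044018-75048830). Ly6e is on the plus strand and the other 5 on the minus strand. Ly6g6c (chr17:35065388-35070050, plus strand) lies on chromosome 17 among the class III genes of the major histocompatibility complex. Lypd3 (chr7:24636550-24641118, plus strand) lies on chromosome 7.

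Because HuR binds AU-rich sequence, the AUUUA pentamer (ATTTA in DNA letters) was looked for in the 3′ untranslated region of each gene's principal GENCODE transcript. It occurred 1 time each in Ly6c1, Ly6e, Ly6g6c and Lypd3, and in none of Ly6a, Ly6d, Ly6k and Slurp1. Of all 19947 genes with such a region, 59.8% held the pentamer, and the nonamer TTATTTATT, present in 6.5% of them, was in none of the 8. The genes that were higher in the libraries labelled KO (below) include Ly6g6c and Lypd3 with a pentamer and Ly6d without one. The 4 occurrences are shown with 10 bases on each side, 5′ to 3′ on the transcript strand, the pentamer in capitals.
Ly6g6c, position 137 of 516: gtcctataccATTTAtttcatggga
Lypd3, position 487 of 517: gtcaataaagATTTAgttactttgt
Ly6c1, position 206 of 389: ttgcaatgccATTTAgttgtggatt
Ly6e, position 824 of 1192: atctaggcccATTTAgtgagacagg

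Promoter sequences from RefSeq (GRCm38.p6) matched 3 of the 8 members, Lypd3, Ly6g6c and Ly6c1. The 250 bases before the start site are shown for Lypd3 and Ly6g6c, which were both higher in the libraries labelled KO. Capitals mark the matches to a GC box (GGGCGG) in Lypd3, found on the opposite strand at -199 to -194 and -125 to -120, and to a TATA box (TATAAA) in Ly6g6c at -30 to -25.
Lypd3, chr7:24636320-24636569, plus strand: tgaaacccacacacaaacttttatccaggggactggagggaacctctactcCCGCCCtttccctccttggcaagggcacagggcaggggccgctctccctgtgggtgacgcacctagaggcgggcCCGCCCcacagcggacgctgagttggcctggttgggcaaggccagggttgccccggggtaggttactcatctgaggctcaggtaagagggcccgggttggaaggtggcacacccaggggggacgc
Ly6g6c, chr17:35067075-35067324, plus strand: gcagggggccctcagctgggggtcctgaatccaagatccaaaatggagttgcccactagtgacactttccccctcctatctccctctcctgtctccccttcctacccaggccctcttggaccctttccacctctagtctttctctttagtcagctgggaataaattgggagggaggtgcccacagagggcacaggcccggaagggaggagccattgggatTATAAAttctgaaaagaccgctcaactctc
The RefSeq starts of both genes lie inside their GENCODE gene models. Searched on both strands, a GC box was in 32.7% of 32851 RefSeq promoters of that length and a TATA box in 12.4%. Neither window, nor those of Ly6c1, matched an AP-1 site (TGANTCA, in 6.7% of promoters), a grainyhead site (AACNGGTT, 1.8%), a STAT site (TTCNNNGAA, 7.0%) or the IRF site (3.0%). A TATA box also stood in 1 of the Ly6c1 windows, at -143 to -138. These are matches of letters, and binding was not measured.

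Among the 8 genes, the epithelial members Lypd3, Ly6g6c and Ly6d were higher in the tongues labelled KO, by 2.50-fold, 2.02-fold and 1.81-fold, and the secreted member Slurp1 showed a similar ratio without passing the test. Ly6a and Ly6c1, known from vessels and blood cells, and the broadly made Ly6e had ratios of 1.22, 1.03 and 0.956 and did not pass. Levels below are CPM after TMM scaling. Each log2 fold change sets the KO group over the WT group and carries its standard error, and adjusted p-values (edgeR quasi-likelihood, Benjamini-Hochberg) are over all 15903 genes tested.

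Lypd3, also called C4.4A, is a GPI-anchored relative of the urokinase receptor found in the suprabasal layers of squamous epithelium. Its level was 553, 564 and 465 CPM in KO replicates 1 to 3, against 286, 220 and 128 CPM in WT replicates 1 to 3. Every KO library was above every WT library, and WT replicate 3 was the lowest of the 6. The means were 527 ± 54.2 CPM in the KO group and 211 ± 79.7 CPM in the WT group (SD, n = 3 each). Lypd3 rose by 1.32 ± 0.28 on the log2 scale, the largest change among the 8 (95% interval 0.67 to 1.97, edgeR adjusted p = 0.0360).

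Ly6g6c is a GPI-anchored member encoded in the major histocompatibility complex. The tongues labelled KO, replicates 1 to 3, had 181, 217 and 137 CPM, and those labelled WT had 90.1, 105 and 70.9 CPM. The lowest KO library was still above the highest WT library. The means were 178 ± 39.7 CPM in the KO group and 88.5 ± 16.9 CPM in the WT group (SD, n = 3 each). Ly6g6c rose by 1.01 ± 0.21 on the log2 scale (95% interval 0.54 to 1.49, edgeR adjusted p = 0.0338).

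Ly6d is a GPI-anchored protein of keratinocytes that is also known as a marker of early B-lineage commitment. KO replicates 1, 2 and 3 had 546, 612 and 456 CPM, whereas WT replicates 1, 2 and 3 had 349, 293 and 250 CPM. The groups did not overlap, and KO replicate 2 was the highest library, as it was for Lypd3 and Ly6g6c. The means were 537.9 ± 78.2 CPM in the KO group and 297.2 ± 49.5 CPM in the WT group (SD, n = 3 each). Ly6d rose by 0.86 ± 0.19 on the log2 scale (95% interval 0.41 to 1.30, edgeR adjusted p = 0.0376).

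Slurp1 encodes a secreted protein of differentiating keratinocytes that acts on nicotinic acetylcholine receptors, and its loss in humans causes the palmoplantar keratoderma mal de Meleda. Its level was 25.4, 37.8 and 18.9 CPM in KO replicates 1 to 3, against 17.3, 14.0 and 9.69 CPM in WT replicates 1 to 3. The groups did not overlap, but KO replicate 3 was close to WT replicate 1. The means were 27.4 ± 9.60 CPM in the KO group and 13.7 ± 3.82 CPM in the WT group (SD, n = 3 each). Its log2 fold change of 1.00 ± 0.29 (95% interval 0.33 to 1.67) did not pass the test (edgeR adjusted p = 0.0568). It passed with DESeq2 on the same counts (adjusted p = 0.00762), and in the authors' deposited table, whose fold change is WT over KO, it had -0.88 with an adjusted p of 0.00748. The Slurp1 gene model overlaps that of Them6 by 322 bases on the opposite strand, and with no strand setting given, reads from that stretch cannot be assigned to either gene. Them6 was at 9.15 CPM in the KO group and 12.1 CPM in the WT group and did not pass the test (adjusted p = 0.220).

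In the 4 epithelial genes, the single male KO library, replicate 1, lay between the 2 female KO libraries and above all 3 WT libraries, which were male.

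**Figure D1:**
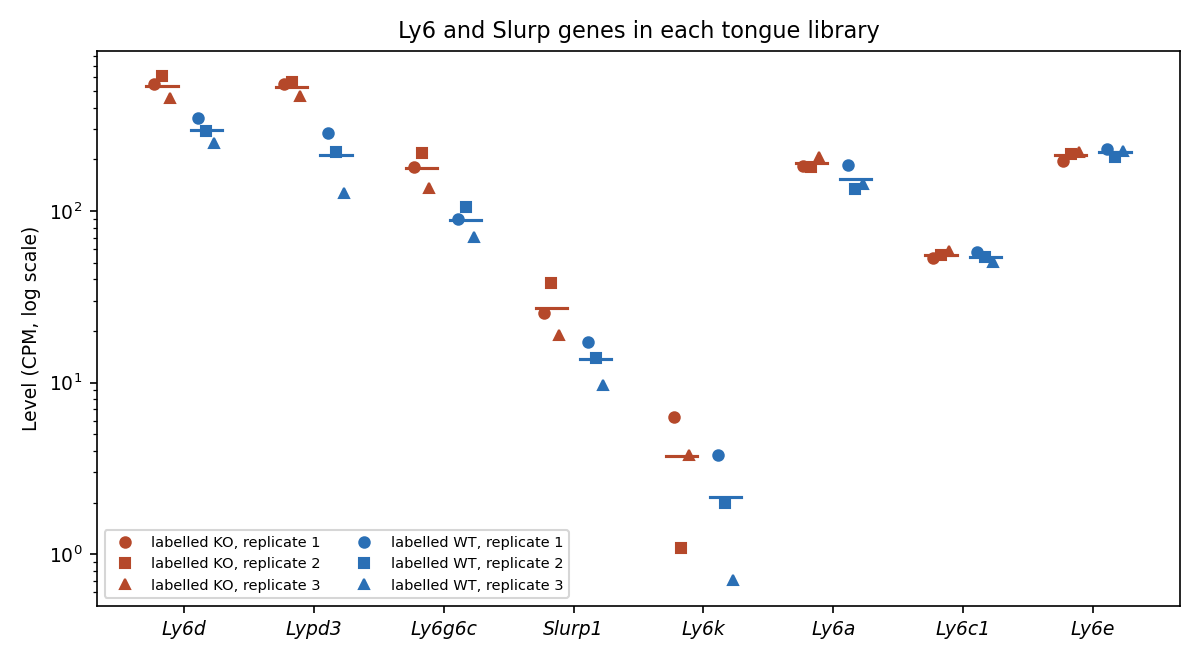
Level of each of the 8 genes in each library, in CPM on a log axis, with libraries labelled KO in red left of those labelled WT in blue, 1 symbol per replicate number, and horizontal bars at the group means. Lypd3, Ly6d, Ly6g6c and Slurp1 had all 3 KO libraries above all 3 WT libraries, while the groups overlapped for Ly6k, Ly6a, Ly6c1 and Ly6e.

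Ly6a encodes Sca-1, an interferon-inducible GPI-anchored antigen of endothelial cells, some stromal cells and haematopoietic progenitors. The tongues labelled KO, replicates 1 to 3, had 183, 180 and 205 CPM, and those labelled WT had 185, 135 and 143 CPM. The groups overlapped only through WT replicate 1, which was above 2 of the KO libraries. The log2 fold change of 0.29 ± 0.16 did not pass (95% interval -0.07 to 0.65, edgeR adjusted p = 0.198). Without WT replicate 1 it was 0.46 and passed (edgeR adjusted p = 0.0279), in a fit that called 2906 genes higher and 2938 lower.

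Ly6c1 encodes a Ly-6C antigen of endothelial cells and some leukocytes. KO replicates 1, 2 and 3 had 53.5, 55.4 and 58.2 CPM, whereas WT replicates 1, 2 and 3 had 57.6, 54.2 and 50.4 CPM. The groups interleaved over a narrow range. With a log2 fold change of 0.04 ± 0.11, Ly6c1 did not pass (95% interval -0.21 to 0.29, edgeR adjusted p = 0.783).

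Ly6e is a broadly made, interferon-induced member that serves in mice as the receptor for the placental fusion protein syncytin-A. Its level was 196, 215 and 222 CPM in KO replicates 1 to 3, against 230, 207 and 225 CPM in WT replicates 1 to 3. The groups overlapped. Ly6e had the only negative log2 fold change of the 8, at -0.06 ± 0.13 (95% interval -0.36 to 0.23, edgeR adjusted p = 0.729).

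Ly6a and Ly6c1 have close copies, so their counts are uncertain. Of the 50-base windows of the Ly6c1 transcript, 292 of 795 (36.7%) occur letter for letter in another transcript, 252 of them in Ly6c2. For Ly6a the share was 62 of 770 windows (8.1%), and for the other 6 genes it was 0.

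Ly6k is a GPI-anchored protein known from testis, where in mice it is needed for sperm migration, and from tumours in humans. It was the scarcest and most uneven of the 8, at 6.28, 1.08 and 3.77 CPM in KO replicates 1, 2 and 3, against 3.78, 1.98 and 0.703 CPM in WT replicates 1, 2 and 3. KO replicate 2 and WT replicate 3 were lowest, with 41 and 18 counts. The groups overlapped, and the log2 fold change of 0.77 ± 0.68 had a 95% interval of -0.80 to 2.35 (edgeR adjusted p = 0.420).

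All 8 genes passed the filter on low counts. Of the 8, 3 rose, where 4.81% of all genes tested were called higher, and 0 fell, where 7.43% were called lower. The same edgeR test put 4 higher and 0 lower when p was left unadjusted, under 0.05. At that unadjusted threshold, 2897 of all 15903 genes tested were higher and 3233 lower. All 3 KO libraries were above all 3 WT libraries for 4 of the 8, against 22.0% of all genes, and below them for 0 of the 8, against 22.1% of all genes. The median log2 fold change was 0.81 over the 8 genes and 0.02 over all genes tested. Together the 8 genes took 0.185%, 0.205% and 0.161% of the counts in KO replicates 1, 2 and 3, and 0.127%, 0.0962% and 0.076% in WT replicates 1, 2 and 3. The 3 calls varied with the libraries included. Without KO replicate 1, 2 or 3, or without WT replicate 2, none of the 8 passed, with adjusted p from 0.0541 to 0.144 for the 3 genes. Without WT replicate 1, 5 passed (Ly6d, Lypd3, Ly6g6c, Slurp1 and Ly6a), and without WT replicate 3, 2 passed (Lypd3 and Ly6g6c). Calls over all genes moved too, with 2906 higher and 2938 lower without WT replicate 1 and 294 and 437 without WT replicate 3. They were 4 and 6, 0 and 0, and 49 and 3 without KO replicates 1, 2 and 3, and 0 and 1 without WT replicate 2. Over these omissions the log2 fold change stayed between 1.06 and 1.62 for Lypd3, 0.85 and 1.17 for Ly6g6c, 0.74 and 1.00 for Ly6d, and 0.70 and 1.22 for Slurp1. With the mean of the fast muscle genes as a covariate, the log2 fold changes were 0.49 for Lypd3, 0.59 for Ly6g6c, 0.34 for Ly6d and 0.10 for Slurp1, and none passed. With the basal keratinocyte mean as a covariate they were 0.74, 0.98, 0.63 and 0.73, and with sex 1.39, 1.03, 0.88 and 0.89, in the same order of genes, and none passed in either. In each of these covariate fits 0 of all genes tested were called higher and 0 lower, so the lost calls are not particular to these genes.

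**Figure D2:**
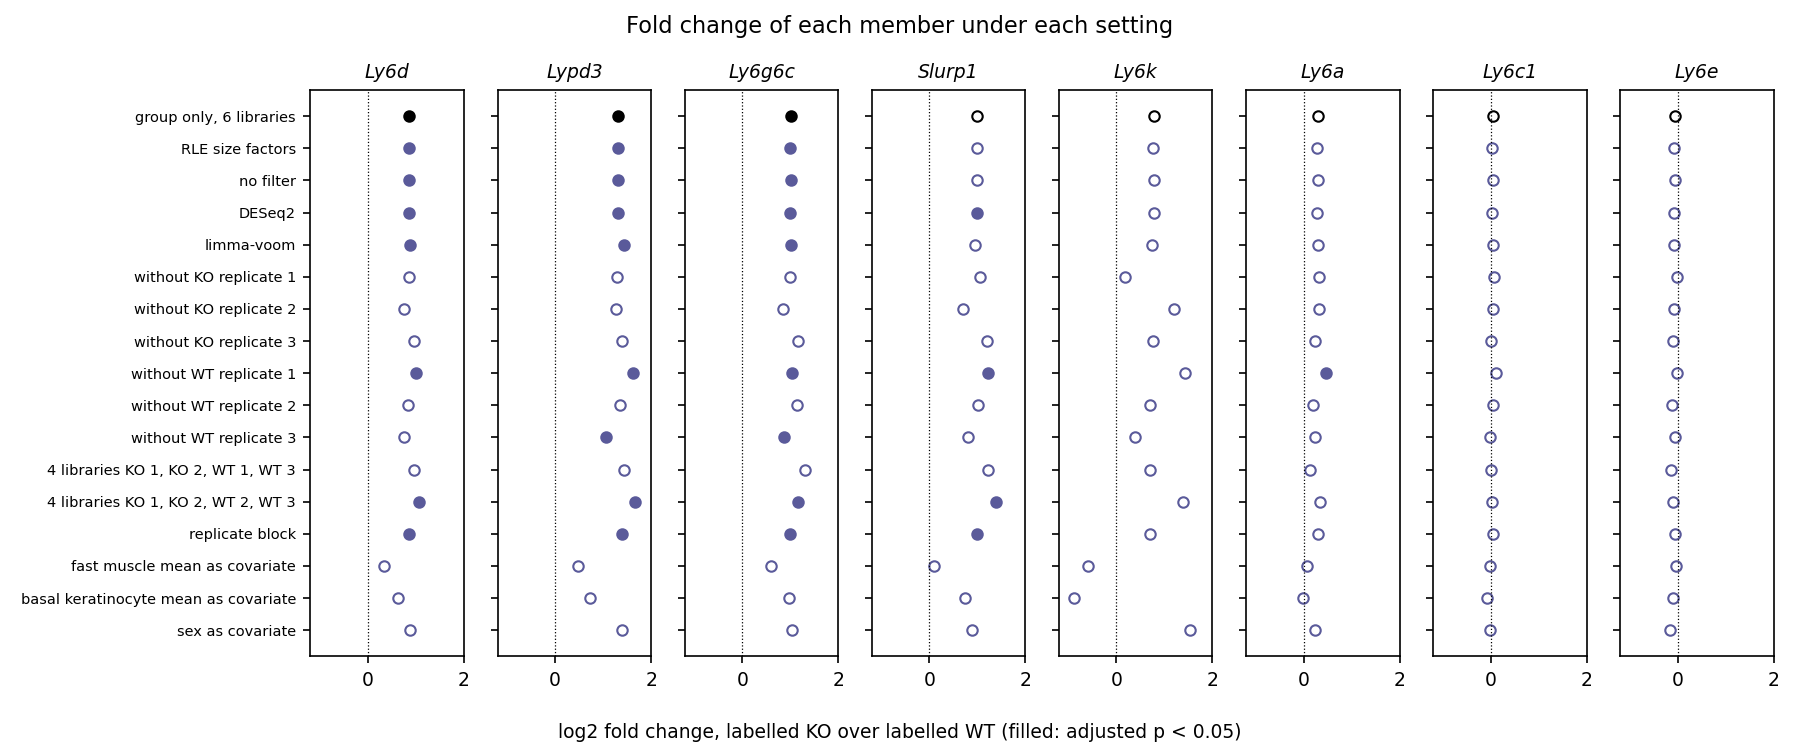
Log2 fold change, labelled KO over labelled WT, of each of the 8 genes (panels) under 16 alternatives (rows below the top one, which is the fit reported), with filled circles where the adjusted p was under 0.05. Lypd3, Ly6g6c, Ly6d and Slurp1 stayed above 0 in every row, with their lowest values in the fast muscle row, and Ly6k crossed 0 in the rows with the fast muscle or the basal keratinocyte mean as a covariate.

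Per kilobase of the principal transcript, Ly6d was the most abundant of the 8 in both groups, at 723 ± 105 CPM per kb in the libraries labelled KO and 399.5 ± 66.5 CPM per kb in those labelled WT (SD, n = 3 each). In the KO group Lypd3 followed at 319.8, then Ly6a at 231, Ly6g6c at 185.5, Ly6e at 92.5, Ly6c1 at 66.0, Slurp1 at 9.57 and Ly6k at 4.69 CPM per kb. The libraries of neighbours in that order overlapped for Ly6a with Ly6g6c and for Slurp1 with Ly6k. In the WT group the order after Ly6d was Ly6a at 189, Lypd3 at 128, Ly6e at 96.7, Ly6g6c at 92.0, Ly6c1 at 64.0, Slurp1 at 4.78 and Ly6k at 2.73 CPM per kb. There the neighbours Ly6a and Lypd3, Lypd3 and Ly6e, Ly6e and Ly6g6c, and Slurp1 and Ly6k overlapped. Lypd3 and Ly6g6c thus stood 1 place higher in the KO order than in the WT order. The level of Slurp1 depends on its transcript, though by group means its place between Ly6c1 and Ly6k does not. On the shorter one of 567 bases, in place of 2859, it had 48.3 CPM per kb in the KO group and 24.1 in the WT group. There Slurp1 overlapped Ly6c1 in the KO group, with 66.7 CPM per kb in KO replicate 2, where Ly6c1 had 65.7.

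The epithelial members were set against the epithelial RNA of each tongue. Against the summed counts of 12 basal keratinocyte genes, Lypd3 was the epithelial member whose groups did not overlap. The sum includes Dst, which ran the other way from the other 11 genes. Dst had 1080, 892 and 988 CPM in the KO libraries and 1400, 1650 and 2000 CPM in the WT libraries. Its part in the ratios was not tested. Lypd3 had 38.4, 36.3 and 29.1 counts per 1000 basal counts in KO replicates 1, 2 and 3, against 21.6, 25.1 and 16.6 in WT replicates 1, 2 and 3. All KO libraries were above all WT libraries, and the log2 ratio was higher by 0.72 in the KO group (2-sided exact permutation p = 0.1, the smallest that 3 against 3 libraries allow). Against 22 suprabasal genes the Lypd3 difference was 0.49 (exact permutation p = 0.1), with KO replicate 1 and WT replicate 1 both at 11.3 per 1000. Against Krt5 and Krt14 alone it was 0.39, and the groups overlapped (exact permutation p = 0.2).

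Ly6d followed the keratinocyte counts more closely. It had 37.9, 39.3 and 28.6 counts per 1000 basal counts in KO replicates 1, 2 and 3, against 26.2, 33.4 and 32.6 in WT replicates 1, 2 and 3 (log2 difference 0.19, exact permutation p = 0.4). Per 1000 suprabasal counts it had 11.2, 12.3 and 12.8 in the KO libraries, against 13.7, 10.3 and 13.5 in the WT libraries (log2 difference -0.04, exact permutation p = 0.8). The groups overlapped on both scales, although the CPM of Ly6d did not.

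Ly6g6c had 12.6, 13.9 and 8.61 counts per 1000 basal counts in KO replicates 1, 2 and 3, against 6.78, 11.9 and 9.24 in WT replicates 1, 2 and 3 (log2 difference 0.34, exact permutation p = 0.4). Per 1000 suprabasal counts it ranged only from 3.71 to 4.36 in the KO libraries and from 3.54 to 3.83 in the WT libraries (log2 difference 0.11, exact permutation p = 0.2). Slurp1 differed by 0.32 per basal count and 0.09 per suprabasal count on the log2 scale, with overlapping groups (exact permutation p = 0.4 and p = 0.6). Ly6k differed by 0.09 per basal count, also with overlap (exact permutation p = 0.9). Ratios to keratinocyte counts were taken for all 8 genes and ratios to endothelial counts for 3, and with 3 libraries a group none can reach p under 0.05.

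**Figure D3:**
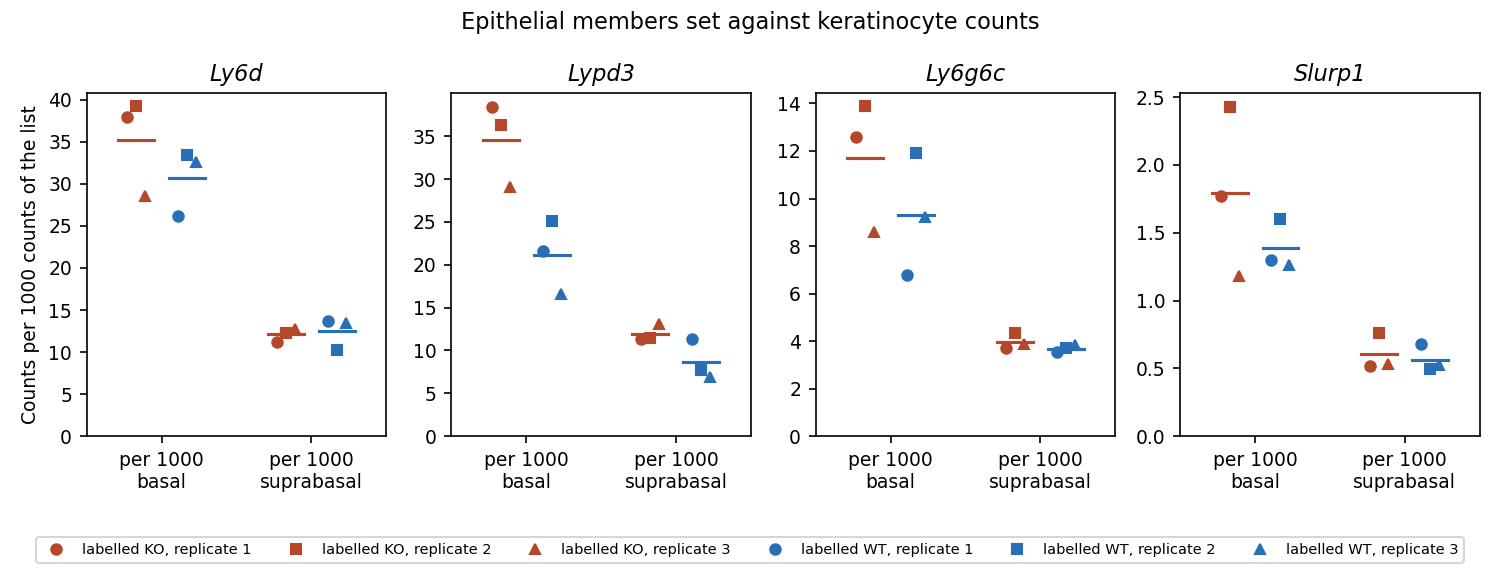
Counts of Ly6d, Lypd3, Ly6g6c and Slurp1 (panels) per 1000 summed counts of the basal or the suprabasal keratinocyte genes in each library, libraries labelled KO in red left of those labelled WT in blue, with bars at the group means. Per basal count, Lypd3 had its KO libraries between 29.1 and 38.4 and its WT libraries between 16.6 and 25.1, while for Ly6d, Ly6g6c and Slurp1 the groups overlapped on both scales.

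For Ly6a, Ly6c1 and Ly6e, the epithelial ratios ran the other way. Per basal count, the log2 differences were -0.36 for Ly6a, -0.62 for Ly6c1 and -0.73 for Ly6e, with all KO libraries below all WT libraries (exact permutation p = 0.1 for each). Set against 16 endothelial genes, Ly6a had 256, 302 and 292 counts per 1000 in KO replicates 1, 2 and 3, against 227, 129 and 136 in WT replicates 1, 2 and 3. Ly6c1 had 75.0, 93.1 and 82.7 per 1000 in the KO libraries, against 70.5, 51.9 and 47.8 in the WT libraries. Neither overlapped, and the log2 differences were 0.83 for Ly6a and 0.57 for Ly6c1 (exact permutation p = 0.1 for each). Ly6e overlapped, with a difference of 0.46 (exact permutation p = 0.2). In CPM, Ly6a, Ly6c1 and Ly6e had log2 fold changes of 0.29, 0.04 and -0.06. The ratios of these genes per basal count and per endothelial count thus had opposite signs. These ratio tests cannot tell a change in a member from one in its denominator. The endothelial genes themselves summed to 595 to 714 CPM in the KO group and 816 to 1050 CPM in the WT group, and 3 of 16 fell, Cdh5 (-0.80), Kdr (-0.91) and Tie1 (-0.69, log2). Leukocyte genes overlapped, at 204 to 249 CPM in the KO group and 198 to 226 CPM in the WT group, with 3 of 16 tested higher, namely the neutrophil receptors Cxcr2 (1.72) and Csf3r (1.28) and the lipopolysaccharide co-receptor Cd14 (0.85, log2). Fibroblast genes summed to 1170 to 1570 CPM in the KO group and 1800 to 2190 CPM in the WT group, with 6 of 13 lower. Over all genes tested, 4.81% were called higher and 7.43% lower. The 6 salivary gland genes summed to 32.8 to 38.4 CPM in the KO group and 28.3 to 88.1 CPM in the WT group, with none called by edgeR's quasi-likelihood test (unadjusted, 1 higher under 0.05). Unadjusted, 2897 of all 15903 genes tested were higher and 3233 lower by that test. What part other cells had in the levels of Ly6a, Ly6c1 and Ly6e was not tested.

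The rest of the domain family was read from a list of 40 other mouse genes, of which 37 had a row, 6 rows held no counts and 20 were tested. Of these 20, 6 rose and 2 fell, where 4.81% of all genes tested were called higher and 7.43% lower. The median log2 fold change of the 20 was 0.85. Those that rose were Lypd5, Psca, Lypd6b, Pinlyp, Tex101 and Ly6m. Lypd5, a GPI-anchored relative of Lypd3 on chromosome 7, had 58.2, 45.8 and 22.3 CPM in KO replicates 1 to 3, against 13.4, 13.9 and 9.18 CPM in WT replicates 1 to 3. The groups did not overlap, and Lypd5 rose by 1.79 ± 0.34 on the log2 scale (edgeR adjusted p = 0.0325). Psca, prostate stem cell antigen, stood at 4.79, 2.09 and 7.59 CPM in the KO libraries, against 0.946, 1.77 and 0.938 CPM in the WT libraries. Its groups came close at KO replicate 2 and WT replicate 2, and it rose by 1.96 ± 0.49 (edgeR adjusted p = 0.0434). Lypd6b, a GPI-anchored modulator of nicotinic receptors, rose by 0.90 ± 0.21, Pinlyp by 0.81 ± 0.21 and Ly6m by 1.48 ± 0.30. Tex101, a germ cell glycoprotein, rose by 1.93 ± 0.40 at a low level, 1.18 CPM in the KO group and 0.294 CPM in the WT group.

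Lynx1, a membrane-bound brake on nicotinic receptors, went the other way from its neighbours. The tongues labelled KO, replicates 1 to 3, had 148, 154 and 223 CPM, and those labelled WT had 293, 400 and 558 CPM. Lynx1 fell by 1.25 ± 0.27 on the log2 scale (edgeR adjusted p = 0.0360), without overlap. The summed fast muscle genes, at 47500, 50000 and 66900 CPM in the KO libraries and 83900, 120000 and 153000 CPM in the WT libraries, put the 6 libraries in the same order as Lynx1. With their mean as a covariate its log2 fold change was -0.23. Cd59a, which blocks the complement attack complex, fell by 0.87 ± 0.22, at 16.4 CPM in the KO group and 30.2 CPM in the WT group (edgeR adjusted p = 0.0446). Slurp2, the other secreted Slurp, had 19.7, 33.1 and 13.9 CPM in KO replicates 1 to 3, against 11.0, 8.30 and 3.52 CPM in WT replicates 1 to 3. It did not pass the test (1.53 ± 0.44, edgeR adjusted p = 0.0548), and neither did Gml, which had the largest fold change of the list on 8, 3 and 0 counts in WT replicates 1, 2 and 3 (2.32 ± 0.70, edgeR adjusted p = 0.0617). The urokinase receptor gene Plaur, with 6.44 CPM in the KO group and 3.42 CPM in the WT group, did not pass either (0.92 ± 0.34, edgeR adjusted p = 0.0906).

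**Figure D4:**
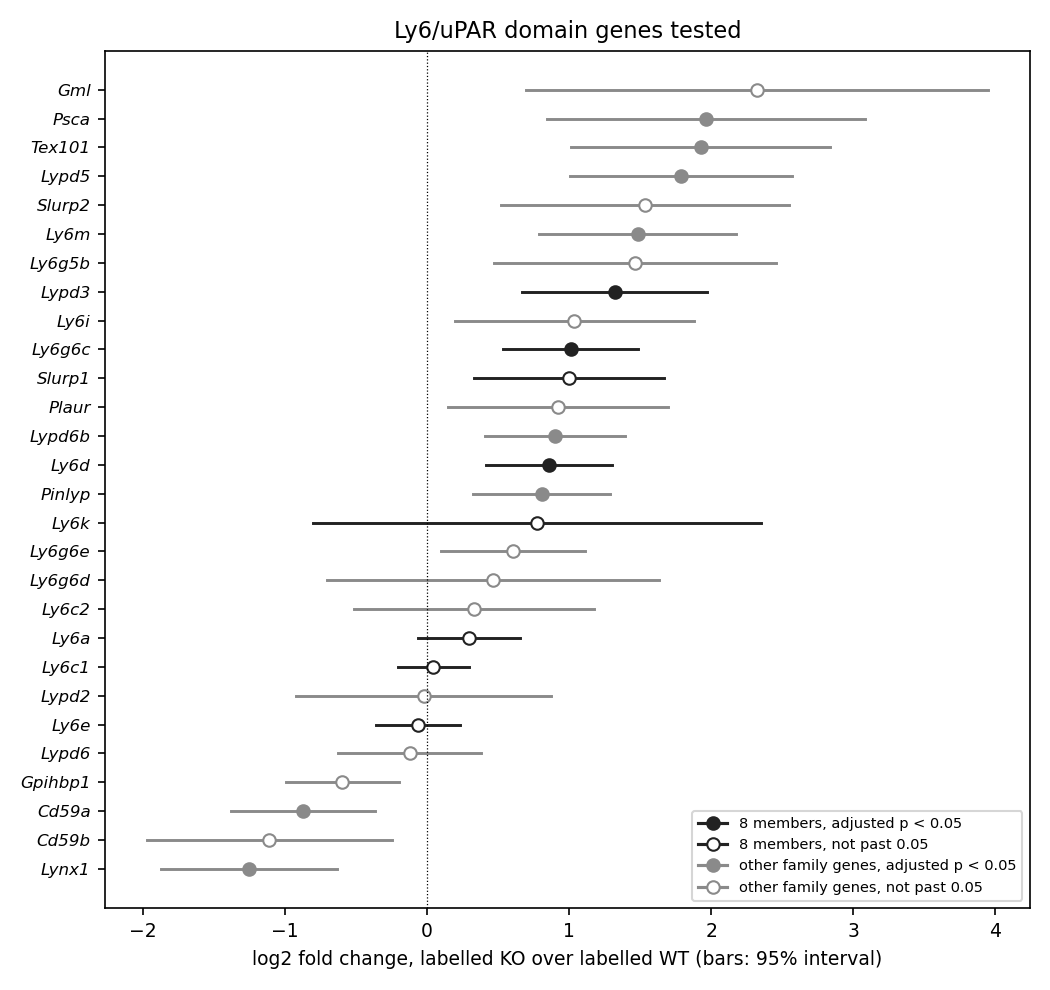
Log2 fold change, labelled KO over labelled WT, of the 8 members (black) and the 20 other family genes tested (grey), with 95% intervals, with circles filled where the adjusted p was under 0.05. Lypd3, Ly6g6c and Ly6d lie among a larger set of genes above 0, Ly6a, Ly6c1 and Ly6e lie near 0, and Lynx1 lies lowest at -1.25.

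Along the chromosome 15 cluster, the fold changes did not follow gene order. The stretch read ran from Mroh4, at -118.3 kb from the start of Slurp1, to Ly6f, at 544.1 kb. Of 25 annotated protein-coding genes there, 18 were tested, 3 rose (Psca, Ly6d and Ly6m) and 1 fell (Lynx1). The family gene Gpihbp1 lies beyond it on chromosome 15. All its KO libraries were below all its WT libraries, but it did not pass (-0.60 ± 0.17, edgeR adjusted p = 0.0555). The shares over all genes tested were 4.81% higher and 7.43% lower. Lynx1 starts 23.5 kb from Slurp1, between Slurp2 at 18.4 kb and Ly6d at 37.7 kb, both of which had positive log2 fold changes. Ly6e, Ly6a and Ly6c1, at 230.7, 270.6 and 319.7 kb, had values between -0.06 and 0.29. Ly6i lies between them at 255 kb, and its log2 fold change of 1.04 ± 0.36 did not pass (edgeR adjusted p = 0.0831) at 0.640 CPM in the KO group and 0.312 CPM in the WT group.

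**Figure D5:**
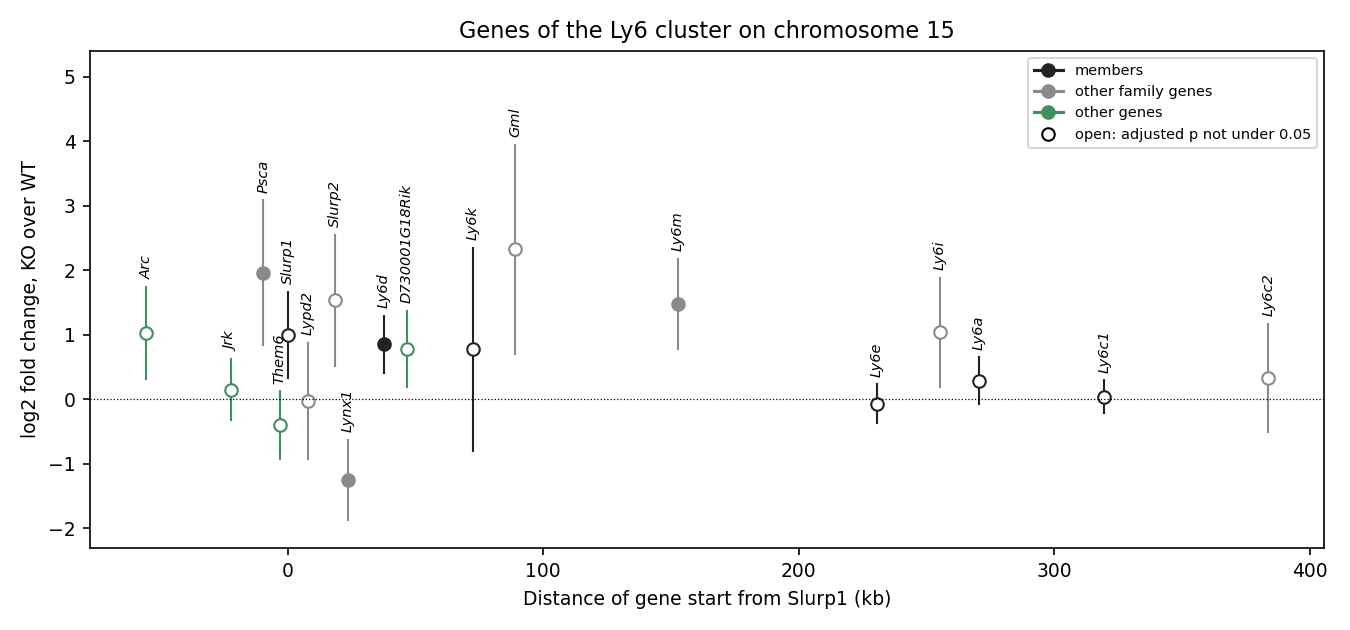
Log2 fold change, labelled KO over labelled WT, with 95% intervals, of the 18 tested genes of the chromosome 15 cluster against the distance of their start from that of Slurp1 in kb, members in black, other genes of the family list in grey and genes outside that list in green, filled where the adjusted p was under 0.05. Lynx1, at -1.25, lies between genes with positive values, and Ly6e, Ly6a and Ly6c1 lie near 0.

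Receptors, ligands and processing genes of the family were read from lists taken by name. Slurp1, Slurp2, Lynx1 and Lypd6b act on certain nicotinic receptors. Of 11 subunits tested, chosen by name and not as known targets, 0 rose and 4 fell, and the median was -0.54. Of all genes tested, 4.81% were called higher and 7.43% lower. Chrna10 fell by 1.91 ± 0.25, with 8.34 CPM in the KO group and 31.3 CPM in the WT group (edgeR adjusted p = 0.0295). The muscle subunits Chrnd, Chrnb1 and Chrna1 fell by 0.95 ± 0.21, 0.54 ± 0.12 and 0.96 ± 0.24 on the log2 scale. Fast muscle genes fell in 7 of 18 in the same libraries, with a median of -1.01.

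Of 5 tested genes of the urokinase system and the Lypd3 ligands, 1 rose and 0 fell. With no filter on low counts, 0 were higher and 1 lower, so these counts depended on the filter. They do not show that any gene changed direction. The gene that rose was Serpinb2, an inhibitor of urokinase, with 63.4, 55.6 and 89.5 CPM in KO replicates 1 to 3, against 28.2, 12.5 and 6.92 CPM in WT replicates 1 to 3 (2.13 ± 0.46, edgeR adjusted p = 0.0364). Urokinase itself, Plau, was at 89.8 ± 12.9 CPM in the KO group and 49.8 ± 23.5 CPM in the WT group and did not pass (0.85 ± 0.30, edgeR adjusted p = 0.0845). Of 28 genes that build and attach the GPI anchor, 0 rose and 1 fell, Pigp by 0.66 ± 0.16, and the median was 0.09. For both lists, the shares over all genes tested were 4.81% higher and 7.43% lower.

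Among genes of the layers where these proteins are made, 9 of 22 suprabasal keratinocyte genes rose and 0 fell, with a median of 1.12. They included the transcription factors Grhl3 (1.09 ± 0.14) and Ovol1 (1.34 ± 0.20) and the cornified envelope protein Cnfn (0.99 ± 0.14). For this list and those below, 4.81% of all genes tested were called higher and 7.43% lower. Of 12 basal genes none passed edgeR's quasi-likelihood test in either direction (unadjusted, under 0.05, the counts were 6 higher and 1 lower), and the median was 0.68. Unadjusted, 2897 of all 15903 genes tested were higher and 3233 lower. Lowest in adjusted p was Dst, a plakin of hemidesmosomes, with 986 ± 93.2 CPM in the KO group and 1683 ± 302 CPM in the WT group (-0.77 ± 0.22, edgeR adjusted p = 0.0528, without overlap). Next came the integrin Itga6 (0.71 ± 0.22, edgeR adjusted p = 0.0630). Krt14 stood at 5305 ± 721 CPM in the KO group and 2261 ± 1156 CPM in the WT group (1.23 ± 0.38, edgeR adjusted p = 0.0651). Of 26 interferon response genes, to which Ly6a and Ly6e respond, 0 rose and 5 fell, with a median of -0.63. Rsad2 fell by 1.43 ± 0.23, Usp18 by 1.09 ± 0.18 and Ifi44 by 1.28 ± 0.22 on the log2 scale. Ly6a and Ly6e were not on that list, and their log2 fold changes of 0.29 and -0.06 did not pass the test. Without KO replicate 1, KO replicate 2 or WT replicate 2, none of these lists held a called gene. Without WT replicate 1, 10 of the basal genes were called higher and 1 lower.

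Finally, each gene's profile over the 6 libraries was compared with those of 13516 genes, by the root mean square difference of log2 CPM centred on each gene's mean. The nearest to Ly6d were Ccdc120 (0.0445), Spint1 (0.0458), a membrane inhibitor of serine proteases, and Tmem54 (0.0506), where the spread of Ly6d about its own mean was 0.468. The nearest to Lypd3 were Atp2c2 (0.0515), a calcium and manganese pump, Lpar5 (0.0868), a lysophosphatidic acid receptor, and Msmo1 (0.0922), a sterol oxidase, where the spread of Lypd3 was 0.781. The nearest to Ly6g6c were Tprg (0.0516), Nccrp1 (0.0837) and Wfdc5 (0.0894), and to Slurp1 Rbp2 (0.0733), a retinol-binding protein, Gsdmc (0.0821), a gasdermin, and Prss53 (0.133). The spread was 0.562 for Ly6g6c and 0.620 for Slurp1. Ly6k had no gene nearer than Adamts4 (0.448), with a spread of its own of 1.07. For Ly6a the nearest was Sart3 (0.0409, spread 0.215). The profiles of Ly6c1 and Ly6e were nearly flat, and the nearest were Cspp1 (0.0221, spread 0.0694) for Ly6c1 and Cnih4 (0.0250, spread 0.0788) for Ly6e.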

How the data were processed

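Total RNA of tongues with tumours was sequenced from Illumina TruSeq libraries, as the labels' protocols state. The sample titles gave group and replicate. The authors deposited raw read counts per gene for the 6 libraries. Beside them stand, per the file headers, results of the authors' DESeq2 comparison of WT over KO: the mean normalised signal per gene, a log2 ratio and its error, a test score, and p-values before and after adjustment. The submitters' processing notes name HTSeq, DESeq2, hg19 and mm10, without roles. Which aligner, annotation and strand setting were used is not given in the sources here.

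Genes were kept by filterByExpr (minimum count 10, total 15), scaled by TMM and fitted in edgeR 4.0.16 (R 4.3.3) with a robust quasi-likelihood model with group as its only term. Benjamini-Hochberg adjustment ran over the 15903 genes tested, with a threshold of 0.05. The scripts were tested on simulated data. Nothing states that the libraries of a group come from separate animals, so a p-value measures only how these samples spread. Standard errors are the absolute log2 fold change over the square root of the F statistic, and the 95% intervals built on them are approximate. Ratios used counts in each library, tested by 2-sided exact permutation.

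The 8 members, the gene lists and the tests were chosen with earlier results of these data known. Of the other 40 family genes, 8 were matched by gene identifier, among them Slurp2 (2300005B03Rik), Ly6m (2010109I03Rik) and Gml2 (Hemt1). Genes were named by rule: all members, every other family gene called, the 3 with the highest mean CPM and the 2 largest fold changes, and, per list, up to 3 genes lowest in adjusted p. Slurp2, Plaur, Ly6i, Gpihbp1, Them6 and Chrna1 were named after their values were seen. Nearest profiles used genes with a mean of at least 1 CPM. Alternatives were RLE size factors, no filter, DESeq2 1.42.0, limma-voom (limma 3.58.1), leaving out each library, the 2 sets of 4 libraries of the authors' other tables, a replicate block, and covariates for fast muscle, basal keratinocytes and sex. Sequences are from RefSeq (GRCm38.p6) and GENCODE M21.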

Additional observations from a re-analysis of the deposited data

How the results depend on the processing

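Over all genes, 765 rose and 1181 fell. These counts became 1881 and 2468 with DESeq2, 1705 and 2112 with the replicate block, and 2386 and 2900 in the 4 libraries KO 1, KO 2, WT 2 and WT 3. They became 0 and 0 in the 4 libraries KO 1, KO 2, WT 1 and WT 3 and with the fast muscle mean, the basal keratinocyte mean or sex as a covariate, where 1287 and 1921, 221 and 226, 493 and 519, and 1672 and 1860 genes had an unadjusted p under 0.05 by edgeR's quasi-likelihood test. Leaving out 1 library gave 0 to 2906 higher and 0 to 2938 lower. In those same 4 libraries and with those covariates the called members and the other family genes called higher or lower were 0 each. At an unadjusted p under 0.05 the members higher were 4, 0, 3 and 3. Leaving out 1 library gave 0 to 5 members higher, 0 to 11 other family genes higher and 0 to 5 lower, and DESeq2 gave 5 lower. Slurp1 passed with DESeq2 (adjusted p = 0.00762), with the replicate block (0.0119), without WT replicate 1 (0.0232) and in the 4 libraries KO 1, KO 2, WT 2 and WT 3 (0.0122). Same-numbered KO and WT libraries correlated at 0.122, -0.157 and 0.193 in their deviations from the group means. Pairs with different numbers ran from -0.219 to 0.173. So few values cannot settle whether the numbers pair the samples. Psca was not called with the block (0.0580), with limma-voom (0.0579) or in the 4 libraries KO 1, KO 2, WT 2 and WT 3 (0.0892). Log2 fold changes that changed sign were those of Ly6a with the basal covariate (-0.0048), of Ly6c1 with the muscle (-0.0175), basal (-0.0811) and sex (-0.0137) covariates and on leaving out 1 library (-0.0058 to 0.11), and of Ly6k with the muscle (-0.59) and basal (-0.89) covariates. Of the ratios to basal counts, that of Ly6d turned to -0.0387 per suprabasal count and -0.14 per Krt5 and Krt14 count, that of Slurp1 to -0.019 per Krt5 and Krt14 count, and that of Ly6k to -0.14 and -0.24. Leaving out 1 library gave Ly6k ratios from -0.49 to 0.828. DESeq2 called 16 suprabasal, 9 endothelial, 13 interferon and 15 fast muscle genes. Of the basal keratinocyte genes, none of which was called, 4 were higher and 1 lower with DESeq2 and with the block, 1 was lower with limma-voom, and 10 were higher and 1 lower without WT replicate 1 and in the 4 libraries KO 1, KO 2, WT 2 and WT 3. Of the urokinase and Lypd3 ligand genes, 0 were higher and 1 lower with no filter, and 2 were higher and 1 lower with DESeq2. The causes were not tested. Ly6k rests on 18 to 288 counts a library.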
